A study of Danio rerio with 10 samples.

Results

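The genes examined here are 10 immediate early genes of zebrafish that encode proteins of the Fos, Jun and Atf3 group, namely *fosaa*, *fosab*, *fosb*, *fosl1a*, *fosl2*, *jun*, *junba*, *junbb*, *jund* and *atf3*. They were chosen by name, with earlier results of the comparison of POP125× with control known, and they are 10 of the 32520 genes in the table. Each symbol stood for 1 identifier, and all 10 were among the 21563 genes tested, those that reached 10 normalized counts in 3 samples or more. Because the choice drew on the comparison of POP125× with control, the members' values in that comparison are given as a description, without p-values, and no count of calls among them is read as a result. RNA-seq was used to ask which transcripts differed after exposure, and the RNA came from pools of whole AB larvae at 5 dpf. Controls received the solvent DMSO at 0.1%, which the exposed larvae received as well. POP75× and POP125× larvae received in addition a mixture of persistent organic pollutants at 75 or 125 times its level in human blood. Exposure began shortly after fertilization, with the medium renewed daily. The paper's methods give only a minimum length for it. There were 3 control samples (replicates 1, 2 and 4), 3 POP75× samples (replicates 2, 3 and 4) and 4 POP125× samples (replicates 1 to 4), each a pool of 75 larvae by the sample labels. The paper's methods give a smaller pool size. The paper's methods state that treatments were repeated in independent experiments. The labels do not say which experiment each pool came from.

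Fos and Jun proteins carry a basic region that contacts DNA and a leucine zipper by which they pair. A Fos protein pairs with a Jun protein, and the pair is the transcription factor AP-1. Jun proteins can also pair with each other, and Atf3, which belongs to the related ATF/CREB family, can pair with Jun proteins or with itself. Many of these genes are transcribed within minutes of a stimulus without the need for new protein, and their messengers are short-lived. They respond to growth factors, wounding, cell stress and, in the brain, to neuronal activity. In zebrafish larvae *fosab* is widely used to label neurons that have been active.

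Between 13659239 and 20267255 reads were counted on genes per sample. A member had between 24 reads (*fosb* in control replicate 1) and 1867 reads (*junbb* in POP125× replicate 4) in a sample. Values below are normalized counts, that is reads on a gene divided by a size factor of the sample. They are not divided by gene length, so levels are compared between samples and not between genes. Clustering of the samples over all tested genes, with the tree cut into 3, gave sets that cross the treatments, a grouping already known from earlier work on these data. The number of sets was fixed by the cut and is not a result. The first set was made up of POP125× replicates 3 and 4, POP75× replicate 4 and control replicate 1. In the second, control replicates 2 and 4 stood with POP75× replicate 3, and the third joined POP125× replicates 1 and 2 to POP75× replicate 2, with no control. What sets them apart was not tested, and the time of day of collection is not given in the sources used here. In pools of whole larvae, fewer cells of a type and less RNA per cell cannot be told apart. Markers of muscle, neurons, skin, liver and lens were detected in all 10 samples.

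Of the 5 Fos genes, *fosl1a* had the largest difference between POP125× and control. It encodes the zebrafish counterpart of Fra-1, which in mammals lacks the transactivating C-terminus of c-Fos. Its normalized counts were 49.6, 53.8 and 60.1 in control replicates 1, 2 and 4. The POP75× values were 444 (replicate 2), 53.3 (replicate 3) and 154 (replicate 4), and those of POP125× were 1048, 1809, 324 and 416 for replicates 1 to 4, the order used throughout. All 4 POP125× samples were above every control, while POP75× spread from the control level in replicate 3 to a level inside the POP125× range in replicate 2. The highest and the lowest POP125× sample differed 5.57-fold, and the controls 1.21-fold. The log2 fold change at POP125× was 3.69 (SE 0.68), and the mean was 54.5 ± 5.25 (SD, n = 3) in controls and 899 ± 686 (SD, n = 4) at POP125×, a ratio of 16.5.

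*fosb* encodes FosB, a variant of which builds up in the rodent brain under repeated stimulation. Its normalized counts were 22.9, 58.7 and 38.4 in controls, 64.4, 62.9 and 105 in POP75×, and 119, 305, 287 and 349 in POP125×. It was the only member in which the 3 conditions did not overlap at all, with every POP75× sample above every control and every POP125× sample above every POP75× sample. Between POP75× and control this was narrow. POP75× replicate 3 had 59 reads and control replicate 2 had 60, so their order rests on the size factors. The POP125× mean was 265 ± 101 (SD, n = 4) against 40.0 ± 17.9 (SD, n = 3) in controls, a ratio of 6.63 and a log2 fold change of 2.69 (SE 0.40).

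*fosab* and *fosaa* are the duplicate counterparts of mammalian Fos. Normalized counts of *fosab* were 118, 353 and 416 in controls, 483, 490.2 and 473 in POP75×, and 409, 1063, 1099 and 1227 in POP125×. The POP75× samples lay within 1.04-fold of each other and above all controls, whereas POP125× replicate 1 lay among the controls and below every POP75× sample. *fosaa* had 42.9, 118 and 133 normalized counts in controls, 118, 99.1 and 129 in POP75×, and 62.0, 195, 282 and 334 in POP125×. For both genes, replicate 1 was the low sample of its condition in controls and in POP125×, and the other 3 POP125× samples were above all controls. At POP125× the log2 fold change was 1.75 (SE 0.44) for *fosab* and 1.06 (SE 0.54) for *fosaa*. Without control replicate 1 these values were 1.19 and 0.55.

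*fosl2*, which encodes the counterpart of Fra-2, had 219, 251 and 239 normalized counts in controls, 445, 231 and 352 in POP75×, and 489, 789, 543 and 597 in POP125×. The controls were tight, with 1.14-fold between the highest and the lowest, and every POP125× sample was above every POP75× and control sample. The log2 fold change at POP125× was 1.33 (SE 0.23).

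Of the Jun genes, *junba* and *junbb*, duplicate counterparts of mammalian JunB, were higher in every POP125× sample than in any control. *junba* had 147, 293 and 370.2 normalized counts in controls, 862, 457 and 299 in POP75×, and 1089.6, 1816, 893 and 991 in POP125×. Every POP125× sample was above every POP75× sample, and POP75× replicate 2 came close to the lowest of them. Its log2 fold change at POP125× was 2.19 (SE 0.39). *junbb* had 293, 621 and 742 normalized counts in controls, 879, 752 and 552 in POP75×, and 837, 1849, 1378 and 1630.0 in POP125×. POP125× replicate 1 was here below POP75× replicate 2, and the log2 fold change at POP125× was 1.41 (SE 0.34).

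*jund* encodes JunD, which in mammals is made in many resting cells. It had 568, 367 and 324 normalized counts in controls, 587, 280.3 and 719 in POP75×, and 647, 905, 843 and 763 in POP125×. Control replicate 1 was the highest control here, unlike for the Fos duplicates, and the POP125× samples were the closest to each other of all members, within 1.40-fold. The log2 fold change at POP125× was 0.94 (SE 0.30). It was 0.33 when the sample set was a term of the fit.

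*jun*, the counterpart of c-Jun, the protein that mammalian Jun kinases phosphorylate, was the exception. Its normalized counts were 1345, 1304 and 1376 in controls, 907, 1622 and 1399 in POP75×, and 883, 1259, 1504 and 1559 in POP125×. The controls differed 1.05-fold, and both treated groups reached below and above them. The mean was 1342 ± 35.6 (SD, n = 3) in controls, 1309 ± 365 (SD, n = 3) at POP75× and 1301 ± 308 (SD, n = 4) at POP125×, and the log2 fold change at POP125× was -0.08 (SE 0.23). The low samples, POP75× replicate 2 and POP125× replicate 1, both belonged to the third set, which has no control. In the first set *jun* had 1345 in the control, 1399 at POP75×, and 1504 and 1559 at POP125×.

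*atf3* is a stress-induced gene whose product can repress transcription as a pair with itself in mammals. It had 176, 139.8 and 136 normalized counts in controls, 298, 107 and 272 in POP75×, and 369, 618, 500.2 and 581 in POP125×. Every POP125× sample was above every other sample, and POP75× replicate 3 was below all controls. The mean was 150.4 ± 21.9 (SD, n = 3) in controls and 517 ± 110.2 (SD, n = 4) at POP125×, a log2 fold change of 1.76 (SE 0.32).

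**Figure D1:**
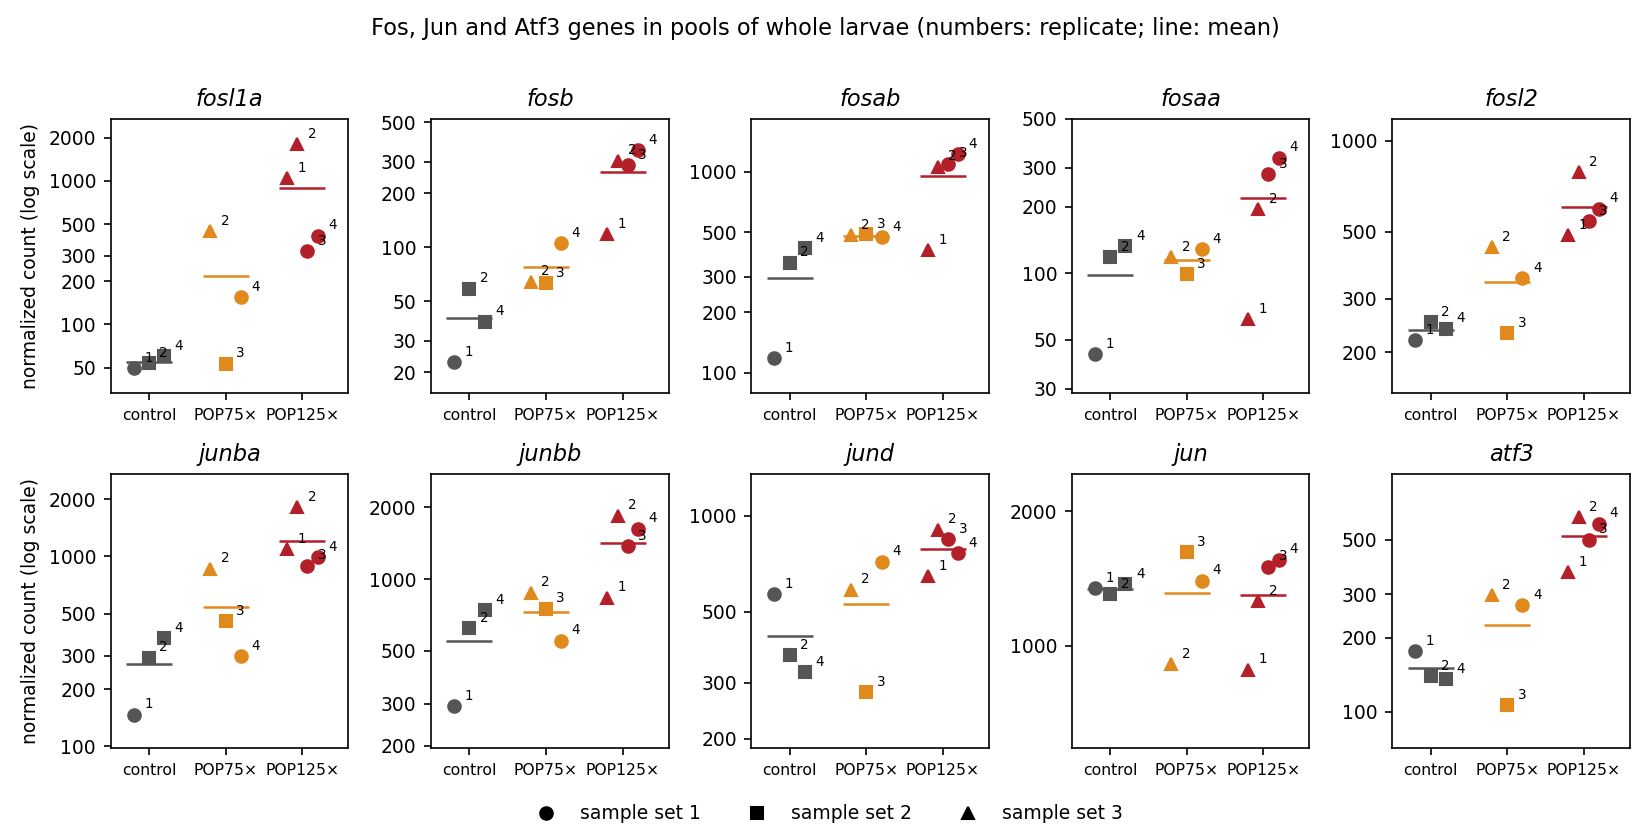
Normalized counts (log axis) of the 10 genes in each pool, by condition, with the replicate number beside each point, a line at the mean and the marker shape giving the set of the sample in the clustering. For *fosb* the conditions do not overlap, though POP75× replicate 3 (62.9) is close to control replicate 2 (58.7). For *fosl1a* the 3 control samples lie between 49.6 and 60.1 while the POP125× samples lie between 324 and 1809. For *jun* the controls lie inside the range of both treated groups.

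At POP125×, 9 of the 10 members had a positive log2 fold change, with a median of 1.58 beside -0.0082 over all genes tested. In 7 members (*fosb*, *fosl1a*, *fosl2*, *junba*, *junbb*, *jund* and *atf3*) every POP125× sample was above every control, which held for 12.4% of all genes tested. The choice of the members fixes both this count and the count past an adjusted p of 0.05 in limma, which was 5 (*fosl1a*, *fosb*, *fosl2*, *junba* and *atf3*), where 1.35% of all genes tested were higher by that rule, so neither is a test of the members. When control replicate 4 was left out, or any of POP125× replicates 2 to 4, 0 members were past the threshold, and 1 was when control replicate 2 was left out. The log2 fold changes of *fosl1a* and *fosb* in the fits without a sample were between 3.24 and 4.06 and between 2.35 and 3.03.

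The members were chosen on POP125× against control and not on the POP75× samples. The controls are shared, however, and earlier results of these data were known. The values at POP75× are therefore not fully independent of the choice. No member passed the threshold (0 of 10), as did 0% of all genes tested, while 1274 genes had an unadjusted p under 0.05. The members with an unadjusted p under 0.05 in limma were *fosb* and *junba*. The log2 fold change of *fosb* was 0.99 (SE 0.43, 95% interval 0.051 to 1.94, limma adjusted p = 0.804). It was higher in 3 of 3 POP75× samples than in any control. For *junba* it was 0.96 (SE 0.42, 95% interval 0.033 to 1.88, limma adjusted p = 0.818). Of its POP75× samples, 2 of 3 were above all controls. *fosl1a* had the largest log2 fold change, 1.49, with the widest error (SE 0.73, 95% interval -0.11 to 3.09, limma adjusted p = 0.86).

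The other members at POP75× had log2 fold changes of 0.89 (*fosab*), 0.48 (*fosl2*), 0.48 (*junbb*), 0.45 (*atf3*), 0.38 (*fosaa*), 0.27 (*jund*) and -0.08 (*jun*), with limma adjusted p-values between 0.867 and 0.971. Their median over the 10 members was 0.48, beside -0.00035 over all genes tested. Every POP75× sample was above every control for *fosab* and *fosb*, that is 2 of 10 members beside 4.94% of all genes tested. edgeR also called 0 members, with 2 at an unadjusted p under 0.05. DESeq2 called 0 members too, with 4 at an unadjusted p under 0.05, where it called 0.589% of all genes it tested. With a term for the sample set, limma called 1008 genes at POP75× and still 0 members. The sets were clustered from these same values, so counts with this term are a description. The 95% interval was -0.31 to 1.21 for *atf3* and -0.44 to 0.98 for *jund*.

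Between the doses, 9 of 10 members had a higher value at POP125× than at POP75×, with a median log2 difference of 0.90 beside -0.0089 over all genes tested. This comparison uses the POP125× samples on which the genes were chosen, so neither its direction nor its calls are independent of the choice, and they are given as a description. None passed the threshold in limma (0 of 10, and 0% of all genes tested), and 7 had an unadjusted p under 0.05, beside 1051 of all genes tested. The log2 difference was 2.196 (SE 0.68) for *fosl1a*, 1.69 (SE 0.40) for *fosb*, 1.30 (SE 0.32) for *atf3* and 1.23 (SE 0.39) for *junba*. *fosb*, *fosl2*, *junba* and *atf3* were higher in every POP125× than in every POP75× sample, 4 of 10 members beside 2.95% of all genes tested. edgeR called 0 members (7 at an unadjusted p under 0.05). DESeq2 placed *fosb* alone past the threshold, as it did 0.157% of the genes it gave an adjusted p. With a term for the sample set in limma, 3 members were past it (*fosl1a*, *fosb* and *junba*), with 0.213% of all genes higher in that fit. That term was derived from the same values, so these calls are a description and not a separate test.

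**Figure D2:**
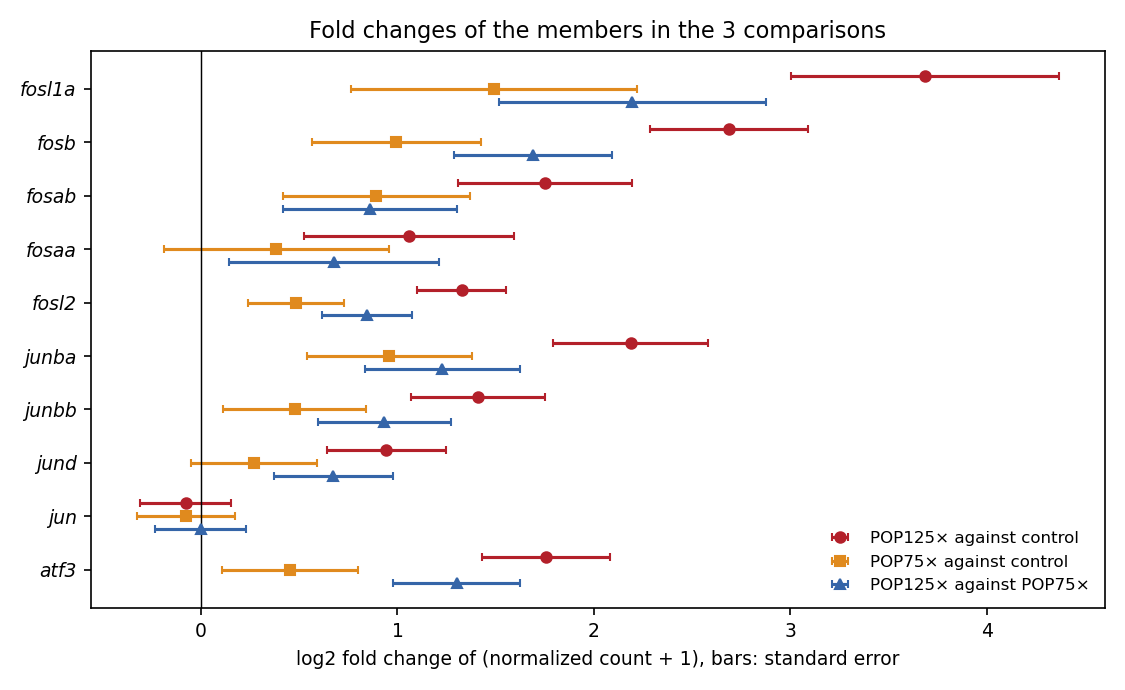
Log2 fold change of each member (x axis, on the scale of normalized count + 1) in the 3 comparisons, with bars of 1 standard error from limma. The POP75× values lie between 0 and the POP125× values for 9 members, from 0.27 for *jund* to 1.49 for *fosl1a*, and *jun* lies at 0 in all 3 comparisons within its error.

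The members did not all follow the same samples. After the mean of each condition was subtracted, the deviations of 2 groups of genes, picked once the values had been seen, ran in partly different samples. *fosaa*, *fosab*, *fosb* and *junbb* were low in replicate 1 of both the controls and POP125×, where *fosab* deviated by -1.12 and -1.10 on the log2 scale. *fosl1a*, *fosl2* and *atf3* deviated downward in POP75× replicate 3, by -1.52, -0.51 and -0.94, and upward in POP75× replicate 2, by 1.52, 0.43 and 0.53. The split was not clean. *fosl2* (-0.28) and *atf3* (-0.46) were also down in POP125× replicate 1, and *fosaa* (-0.21) and *fosb* (-0.26) in POP75× replicate 3. Pearson r of these deviations over the 10 samples was between 0.64 and 0.95 for the pairs inside the first group and between 0.56 and 0.85 inside the second. Between the groups it was -0.23 to 0.46, with a median of 0.20. The points share their libraries and size factors, and the values are a description without a test. *jund*, placed in neither group, also deviated downward in POP75× replicate 3 (-0.81) and upward in POP75× replicates 2 (0.26) and 4 (0.55). Its r was 0.90 with *atf3*, 0.62 with *fosl2* and 0.43 with *fosl1a*. *junba* followed neither pattern throughout. It was low in control replicate 1 (-0.77) and high in POP75× replicate 2 (0.81), but it was near its mean in POP125× replicate 1 (-0.08) and POP75× replicate 3 (-0.10) and low in POP75× replicate 4 (-0.71). The values of *jun* were mixed, with r between -0.79 and 0.56, positive with 4 of the 9 others.

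By sample, POP125× replicate 1 was the lowest of its group for 8 of 10 members and control replicate 1 the lowest control for 7. *fosl1a* and *junba* were not among the 8, and POP125× replicate 1 was their second highest sample. POP125× replicate 2 was the highest of its group for 6 members and replicate 4 for the other 4.

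**Figure D3:**
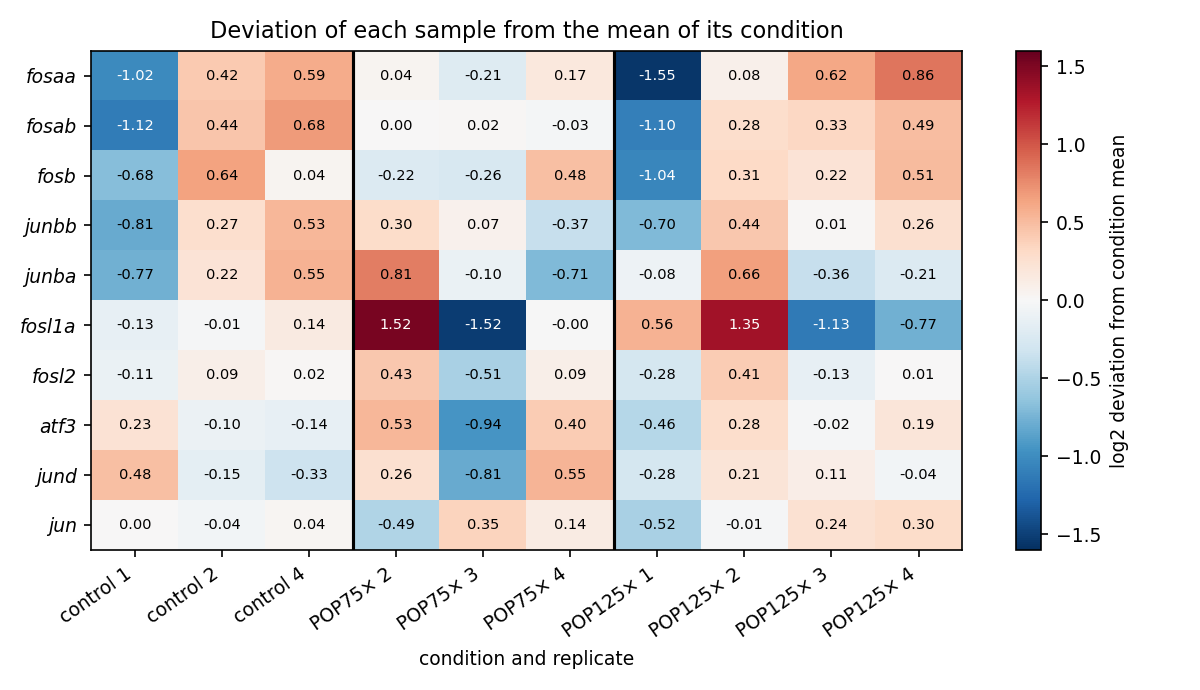
Log2 deviation of each sample from the mean of its condition, for the 10 members (rows) in the 10 pools (columns, with lines between conditions), red above and blue below the mean. Blue cells at replicate 1 of control and POP125× mark *fosaa*, *fosab*, *fosb* and *junbb* (-0.68 to -1.55), and *fosl1a* runs from 1.52 in POP75× replicate 2 to -1.52 in POP75× replicate 3. POP125× replicate 1 is also below the mean for *jun* (-0.52), *atf3* (-0.46), *fosl2* (-0.28) and *jund* (-0.28).

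Within the first set, which holds all 3 conditions, with 1 control, 1 POP75× and 2 POP125× pools, the POP75× value lay between the control and both POP125× values for all 10 members, beside 19.9% of all genes tested, and the values of *jun* there were within 1.16-fold. The control of this set, replicate 1, was the lowest control for 7 members. Because the members were chosen with POP125× against control known, this order is not independent of the choice and is given as a description. For *fosl1a* the values were 49.6 in the control, 154 at POP75× and 324 and 416 at POP125×, and for *fosb* 22.9, 105, and 287 and 349. In the second set the POP75× pool had 53.3 normalized counts of *fosl1a* beside 53.8 and 60.1 in its controls, and 107 of *atf3* beside 139.8 and 136. It was below both controls of that set for 5 members, *fosaa*, *fosl1a*, *fosl2*, *jund* and *atf3*, and above both for the other 5, *fosab*, *fosb*, *jun*, *junba* and *junbb*. Of all genes tested, 40.3% were below and 41.1% above. In the third set *fosl1a* had 444 at POP75× and 1048 and 1809 at POP125×. Once the fit had a term for the sample set, the log2 fold change at POP125× was 2.34 for *fosl1a* and 1.16 for *atf3*, against 3.69 and 1.76 without it, and 3.08 for *fosb* and 2.44 for *fosab*, against 2.69 and 1.75. The third set has no control, so in its pools the set and the exposure cannot be told apart.

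Of 31 clock genes measured, 17 were lower and 9 higher in every pool of the third set than in every other sample, beside 9.88% and 10.6% of all genes tested, and 5 did neither. The sets come from a clustering that included these genes. The clock repressor *per1b* had 684 normalized counts in POP75× replicate 2 and 698 and 721 in POP125× replicates 1 and 2, beside 2580 to 3762 in the other 7 samples, and *nr1d1*, a receptor of the clock's second loop, had 247 to 358 beside 1710.1 to 3267. These 2 genes were picked after their values had been seen. Over the list of clock genes, 0 of 31 passed the threshold at POP125× in limma (4 at an unadjusted p under 0.05, 0 in edgeR and 1 in DESeq2), with a median log2 fold change of -0.20. With a term for the sample set, 3 were lower, beside 979 of all 21563 genes tested. The largest log2 fold changes without that term were those of *rorcb* (1.34) and *nr1d4b* (1.33). They average unlike pools. *rorcb* had 3596, 3216, 232 and 245 at POP125×, beside 279 to 566 in controls. *nr1d4b* had 314, 274, 37.4 and 32.3, beside 31.5 to 53.4. The part of the clock genes in the values of *fosl1a* was not tested.

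Marker sums of some other cell types also differed between the samples. The sum of 7 skin keratinocyte markers was 159428 to 223658 normalized counts in controls, 111900 to 241632 at POP75× and 88862 to 118785 at POP125×, and 0 of the 7 passed the threshold. Only 1 of the 7, *epcam*, had a positive log2 fold change at POP125×. It had 3454 to 3906 in controls and 4383 to 6987 at POP125×. The sum of 6 macrophage markers was 603 to 663 in controls, 575 to 1196 at POP75× and 925 to 1053 at POP125×, again with 0 past the threshold. The sum of 4 lens markers was 1706 to 7904 in controls, 1132 to 11111 at POP75× and 3992 to 10453 at POP125×, with a median log2 fold change of 1.22 at POP125×, 4 of 4 positive and 0 past the threshold. POP75× replicate 3, where *fosl1a* and *atf3* were at or below the control level, had the highest skin sum and the lowest macrophage and lens sums of the 10 samples, and POP75× replicate 2 had the highest macrophage and lens sums. Sums of 10 muscle markers under 11 identifiers (633944 to 752210) and 8 neuronal markers (28832 to 33742) overlapped between all conditions. No marker of these lists was at 0 in all samples. The part of the cell makeup in the members' values was not tested.

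Related gene lists, written with earlier results of these data known, were read from the same limma fit. Their counts and adjusted p-values are therefore not independent of that choice and are given as a description. Of 38 other immediate early genes tested, 4 rose at POP125× and 0 fell, with a median log2 fold change of 0.35 and 30 of 38 positive. Over all genes tested, 1.35% were higher and 0.348% lower. The 4 were *sik1*, a kinase gene driven by CREB in mammals (1.72, SE 0.36, adjusted p = 0.0417), *socs3a* (1.43, SE 0.29, adjusted p = 0.0377) and *socs3b* (1.13, SE 0.18, adjusted p = 0.0167), inhibitors of cytokine signaling, and *rgs2* (1.18, SE 0.25, adjusted p = 0.0425), which turns down G protein signaling. *socs3b* had 177, 189 and 182 normalized counts in controls, 303, 186 and 238 at POP75×, and 352, 462, 356 and 449 at POP125×. As for *fosl1a* and *fosl2*, POP75× replicate 3 was inside the control range and POP75× replicate 2 was the highest of its group. Early genes used as activity markers beside *fosab* were also looked up after their values had been seen. *egr1* had a log2 fold change of 0.12 (SE 0.41), with 1217 to 4160 normalized counts in controls and 1898 to 3249 at POP125×. *npas4a*, which neurons switch on with calcium entry, had 171, 558 and 569 in controls and 310.0, 1698, 3986 and 3461 at POP125×, and its log2 fold change of 2.11 (SE 0.79) was not past the threshold (adjusted p = 0.171). Both had their low control in replicate 1, as *fosab* did.

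Of 44 other bZIP factors tested, 4 rose at POP125× and 0 fell, with a median log2 fold change of 0.33. They were *cremb* (1.88, adjusted p = 0.0267) and *crema* (1.65, adjusted p = 0.0454), counterparts of the cAMP-responsive modulator CREM, *mafk* (1.80, adjusted p = 0.0233), a small Maf protein without a transactivation domain, and *cebpd* (1.45, adjusted p = 0.0252), a factor of the acute phase response in mammals. *mafk* had 46.8, 32.3 and 34.5 normalized counts in controls, 71.8, 32.0 and 75.2 at POP75×, and 86.2, 161, 156 and 143 at POP125×. The groups did not overlap between POP125× and control, and POP75× replicate 3 was again at the control level. Of the relatives of the members that the rule did not name, *june* had a log2 fold change of -0.0080 (SE 0.24), and *fosl1b* and *fosl2l* were below the count minimum.

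For genes with AP-1 sites described in mammals, 29 identifiers were tested, with *mmp13a* counted under each of its identifiers. Of the 29, 3 rose at POP125× and 0 fell, with a median log2 fold change of 0.71. *mmp9*, a gelatinase gene, had 100.2, 128 and 116 normalized counts in controls, 1115, 185 and 319 at POP75×, and 1176, 2093, 610 and 607 at POP125× (log2 fold change 3.08, SE 0.56, adjusted p = 0.0230). As for *fosl1a*, the 3 pools of the third set were the highest of the 10. *il11a*, a cytokine gene, had 0, 0 and 6.89 in controls and 20.0, 36.5, 50.5 and 56.7 at POP125× (4.30, SE 0.81, adjusted p = 0.0267), a fitted value that depends on the pseudocount because 2 controls are at 0. No control of *il11a* reached 10 normalized counts, so the gene was among those tested through exposed pools alone.

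Of 28 MAP kinase and serum response factor genes tested, 0 rose and 1 fell, *map2k6*, which encodes a kinase upstream of p38. It had 1299.8, 1504 and 1590.2 normalized counts in controls, 901, 1104 and 979 at POP75×, and 819, 698, 875 and 787 at POP125×. All 7 exposed samples were below all controls, and the log2 fold change at POP125× was -0.88 (SE 0.14, limma adjusted p = 0.0160). Among 9 phosphatases that switch MAP kinases off, 0 passed the threshold (3 at an unadjusted p under 0.05, 0 in edgeR and 1 in DESeq2), and the largest values were 0.99 for *dusp4* and 0.88 for *dusp1*. With a term for the sample set 5 of the 9 were higher, and with the replicate block 2. In those fits 1728 and 783 of all 21563 genes tested were higher. Of 19 heat shock genes, 0 passed (5 at an unadjusted p under 0.05, 0 in edgeR and 1 in DESeq2), with a median of 0.084, the largest values being -1.62 for *serpinh1b* and 0.97 for *hsp70.3*, and 3 were higher with a term for the sample set. *serpinh1b* had 144, 187, 3384 and 1505 normalized counts at POP125×, beside 1124 to 4996 in controls. At POP75× and between the doses, limma called 0 genes of any of these lists and edgeR 0 as well. DESeq2 called 1 gene with AP-1 sites higher and 1 MAP kinase or serum response factor gene lower at POP75×.

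The 12 calls in these lists changed with the samples and the fit. Leaving out control replicate 2, or any of POP125× replicates 2 to 4, left 0 of the 12 past the threshold, and leaving out control replicate 4 left *il11a* alone. Both remaining controls of *il11a* were then at 0, so that call rests on values at the floor and is no sign of stability. edgeR, which placed 1.02% of all genes higher at POP125×, called 2 of the other immediate early genes, 3 bZIP factors and 1 gene with AP-1 sites higher. DESeq2, with 4.83% of its genes higher, called 13, 7 and 11. With a term for the sample set the counts higher were 18, 7 and 4, beside 1728 of all 21563 genes tested, with all 12 past the threshold. With the replicate block they were 9, 6 and 11, beside 783 of 21563.

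**Figure D4:**
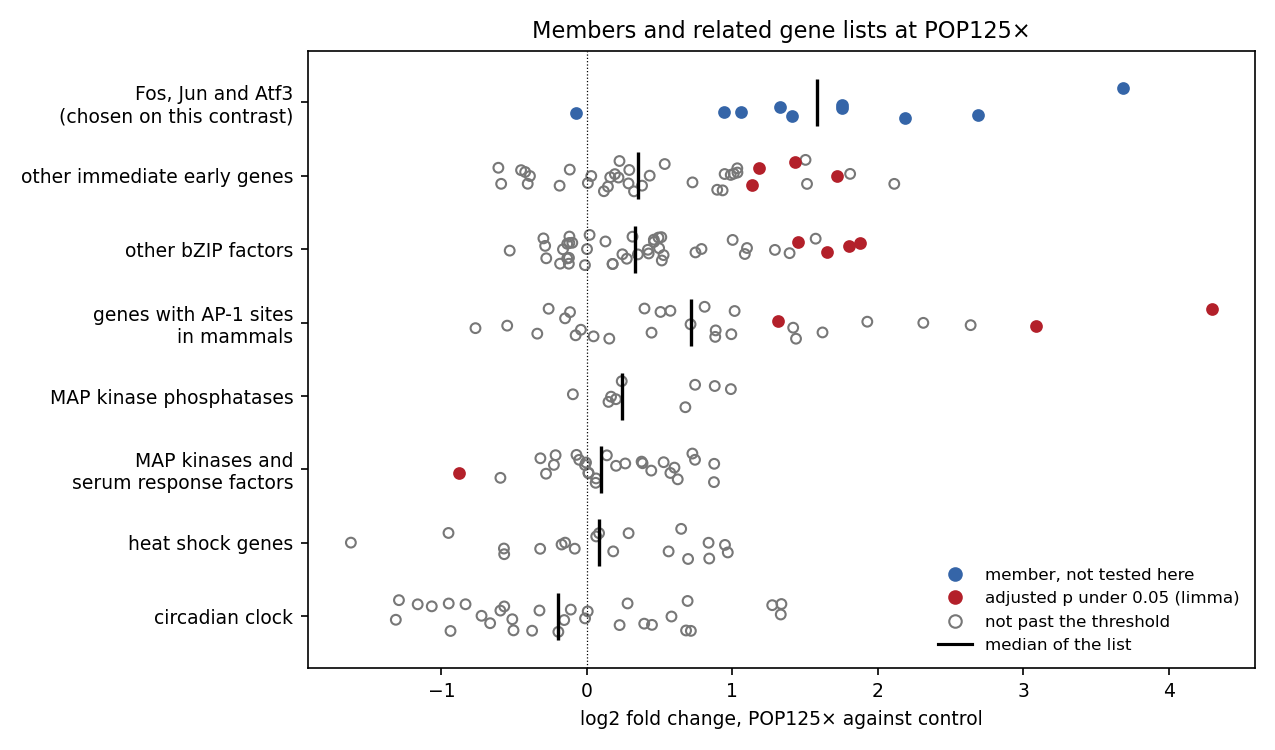
Log2 fold change at POP125× against control (x axis) of each gene in the members and 7 related lists, with a line at the median of each list, filled red points past an adjusted p of 0.05 in limma and blue points for the members, which were chosen on this comparison. The medians run from 1.58 for the members and 0.71 for the genes with AP-1 sites to 0.084 for heat shock genes and -0.20 for clock genes.

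The genes most like the members were ranked by Pearson r between a gene's log2 value and the mean z-score of the 10 members. Genes with a mean of at least 50 normalized counts were compared. They numbered 16761 with the members, which were left out of the ranking. Over the 10 samples, which fall into treatments and sets, they were *trib3* (r = 0.977), *klf9* (0.964), *socs3a* (0.961), CR354588.1 (0.959) and *vgf* (0.955), beside a median of -0.038 over all genes compared. After the mean of each condition was subtracted, they were *aoc2* (0.983), *tnfrsf11a* (0.969), *pecam1* (0.955), *socs3a* (0.942) and si:ch211-168b3.2 (0.941). *socs3a* stood in both lists. These values describe likeness over 10 pools that share their size factors, and no test was made.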

How the data were processed

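The authors deposited a table of 32520 genes whose signal is a normalized count, the reads of a gene divided by a size factor of the sample (DESeq2, by the submitters' processing notes). The methods name stranded mRNA libraries, read from 1 end and counted on GRCz11 with the nf-core rnaseq pipeline at its defaults. In every sample 100% of the values were whole multiples of what 1 read is worth (tolerance 1e-06), and whole reads were recovered from them. The deposited tables of the authors' own comparisons hold means, log2 fold changes with standard errors, Wald statistics as a score, and p-values. They were not used.

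The 21563 genes that reached 10 normalized counts in 3 samples or more entered limma 3.58.1 (R 4.3.3) as log2(value + 1), with an intensity trend, in a single fit of 10 samples with condition as the term. Fold changes on this scale understate low genes. The threshold was a Benjamini-Hochberg adjusted p of 0.05. edgeR 4.0.16 called 285, 0 and 0 genes and DESeq2 1.42.0 called 1609, 127 and 22 on the recovered reads (POP125× against control, POP75× against control, POP125× against POP75×), where limma called 366, 0 and 0. The other alternatives were pseudocounts, the filter, scaling, the trend, 2 groups in the fit, a replicate block, the sample set and leaving out each sample. The scripts were tested on simulated data. Sample sets came from average-linkage clustering of the same log2 values that the fits used, with the tree cut into 3. Counts of calls with the set as a term are therefore a description. Figures were drawn with matplotlib 3.10.9.

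The members, the gene lists and the sample sets were chosen with earlier results of these data known. From each list up to 4 genes past the threshold at POP125× were named, by the size of the log2 fold change, or up to 2 where none passed. A gene that this rule names is not reported here. Further lists were markers of muscle, neurons, keratinocytes, macrophages, neutrophils, lens and liver. The sum of the liver markers was 28063 to 86284 normalized counts over the samples. In the neutrophil list *cpa5* alone had 4106 to 34474, and the other 4 together had 545 to 970.0. No sequences or coordinates are given.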

Additional observations from a re-analysis of the deposited data

How the results depend on the processing

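For POP125× against control, the number of genes past the threshold (366) was 188 under total count scaling, 1534 when the fit held the 2 groups alone, 1609 with DESeq2, 2707 with the sample set as a term, and 38 to 1659 when a sample was left out. The number of members (5) was 3, 7, 8, 7 and 0 to 8 in these fits. For POP75× against control (0 genes) the count was 1008 with the sample set, 127 with DESeq2, and 0 to 5 without a sample. For POP125× against POP75× (0 genes) it was 1 without the filter, 1 without the intensity trend, 61 with the sample set, 22 with DESeq2 and 0 to 2 without a sample, and the members were 3 with the sample set and 1 with DESeq2. The causes were not tested.

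Samples with the same replicate number did not consistently deviate together (r from -0.41 to 0.49 over genes, highest for replicate 2 of POP75× and POP125×). Control replicate 1 correlated best with POP75× replicate 4 (r = 0.56), and the labels do not say that a number marks a shared experiment. These values do not settle whether the numbers pair the samples. With the replicate block the POP125× comparison had 1164 genes and 8 members past the threshold, and the other comparisons 0 members.

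Signs changed for *jun*, which was near 0 in all comparisons, and at POP75× also for *fosaa* (0.38, SE 0.57) and *jund* (0.27, SE 0.32). At POP125× against control, *jun* was -0.18 to 0.097 without a sample. It was positive there with the sample set as a term, as it was in the other comparisons of that fit. At POP75×, *fosaa* was -0.21 with the replicate block and -0.13 to 0.68 without a sample. *jun* was 0.16 with the sample set and -0.25 to 0.17 without a sample, and *jund* was -0.031 and -0.0055 to 0.67. Between the doses, *jun* was 0.092 with total count scaling, 0.10 with the replicate block, 0.13 with the sample set and -0.25 to 0.17 without a sample. The log2 fold changes of the members at POP125× moved by less than the spread in 206 of 210 alternative values. The spread is the member's pooled standard deviation within conditions. That is a wide margin for fits that share most of their samples, so this count is a description and not a test of stability. The 5 members past the threshold there were past it in 78 and not in 27 of their 105 alternative values. Direction and side of the threshold held in 204 of 210 at POP75× and 199 of 210 between the doses. At POP75× no member passed in any fit, so there the count speaks of the sign alone. The 12 genes called in other lists kept their call in 159 alternatives and lost it in 93. Groups of 3 or 4 pools and, for the lowest member values (24 reads), the depth both limit the precision.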
